A study of Mus musculus with 12 samples.

Results

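Serpins are serine protease inhibitors that share 1 fold, and most of them trap a target protease by a large change of shape after it cuts an exposed loop. Secreted serpins hold clotting, fibrinolysis and complement in check, intracellular serpins of clade B guard cells against their own proteases, and a few members inhibit nothing and act as chaperones or hormone carriers. In the yolk sac the visceral endoderm secretes many plasma proteins before the fetal liver does so. The Serpin genes were taken as every gene whose name in the array files began with Serpin. They numbered 55, on 73 probes, out of 27845 gene names, and for the 18 genes with several probes the one with the highest mean processed Cy5 signal over the 12 arrays stood for the gene. All 55 had an assigned chromosome, and clades are the letters in the gene names.

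RNA of whole yolk sacs was measured in 4 groups of 3 biological replicates: Arid1a V1068G homozygotes at E9.5, wild-type yolk sacs at E9.5, Arid1a V1068G homozygotes at E8.5, and wild-type yolk sacs at E8.5. The background strain of all 4 groups is given as CD1, and no other allele or treatment is given. Arid1a, also called Baf250a, encodes the part of the SWI/SNF chromatin remodeller that binds DNA, V1068G is a point mutation, and the study set mutant against wild type at each stage to ask what the ARID domain's contact with DNA is needed for. On each 2-colour array the Cy5 channel held yolk sac RNA and the Cy3 channel the same RNA of whole neonatal wild-type mice of mixed 129Sv and C57BL/6 background, so a log2 ratio below 0 means less signal than in the whole newborn. Dyes were not swapped, so a dye bias of a probe stays in its level against the newborn RNA but not in a difference between groups. Whether a replicate was 1 yolk sac or a pool is not stated.

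Arrays of a group correlated at r of 0.985 to 0.994 over 13953 tested genes, and 46.7% to 50.1% of probes on an array were well above background in Cy5. All 13 markers of visceral endoderm, among them Afp, Ttr and Hnf4a, were well above background on all 12 arrays. On 3 arrays the trophoblast hormone gene Prl4a1 was high: replicate 3 of the mutant E9.5, wild-type E9.5 and mutant E8.5 groups had log2 ratios of 3.74, 4.31 and 5.70, against 0.26 to 1.53 on the other 9 arrays. In each scan a group always took the same place on the slide, and place and group cannot be told apart. Arid1a itself differed between mutant and wild type by 0.16 at E9.5 and 0.05 at E8.5 on the log2 scale (limma adjusted p of 0.304 and 0.826), and an expression probe does not check a point mutation. Whole yolk sac is a mixed tissue, in which fewer cells of a type and less RNA per cell cannot be told apart.

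Of the 55 Serpin genes, 20 were well above background in Cy5 on all 12 arrays, 15 on some and 20 on none. The 2 large clades were detected only in part: 7 of 20 members of clade A and 7 of 25 of clade B were above background on every array. The single members of clades C, D, G and H and both members of clade F were above background on every array, and of clade I Serpini1, the neuronal serpin neuroserpin, on 1 array and Serpini2 on none. Among the 20 that were above background nowhere in yolk sac, 7 were above background in the newborn RNA on all 12 arrays, such as Serpina7, which carries thyroid hormone in plasma, and Serpinb7. Another 12 were not above background in either RNA on any array. Testing required a signal above background on each of the 3 arrays of some group, which 25 Serpin genes met: 9 of clade A, 8 of clade B and all 8 of clades C to H. Of these, Serpinb1b was above background on no mutant E8.5 array, so that its value there is an upper bound.

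**Figure D1:**
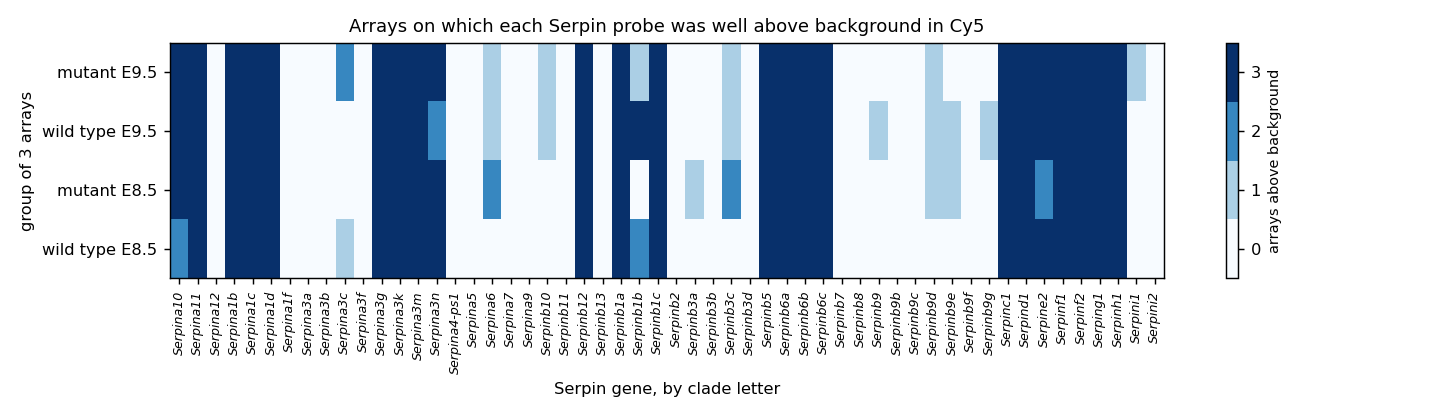
Number of arrays, of 3 in each group, on which the chosen probe of each Serpin gene shown was well above background in Cy5; rows are the 4 groups, columns the genes in order of clade letter. The 20 genes dark in all rows were above background on all 12 arrays.

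Mutant yolk sacs had less of 2 clade B serpins at both stages and more of 2 plasma serpins at E9.5. At E9.5, Serpinc1 (antithrombin) and Serpina10 (protein Z-dependent protease inhibitor) rose, and Serpinb1a and Serpinb6a fell. That made 4 of 25 Serpin genes called by limma at an adjusted p under 0.05, against 1.99% of all genes tested (0.91% rose and 1.08% fell). At E8.5 no Serpin gene rose and 2 fell, again Serpinb1a and Serpinb6a, against 1.43% of all genes (0.71% rose and 0.717% fell). The median difference over the 25 was 0.03 at E9.5 and -0.03 at E8.5 on the log2 scale, beside a median of 0.00 over all genes at each stage. The test of whether the genotype difference itself changed between stages called 0 Serpin genes, where 0% of all genes were called, and 0 Serpin genes had an unadjusted limma p under 0.05 (800 genes in all did). With the scanner software's processed signals Serpinb1a alone of the 4 E9.5 calls was kept and Serpinb1c was added, with arrays centred on their median in place of loess Serpinb1a alone was called, and without the 3 arrays high in Prl4a1 Serpinb1a and Serpinc1 were. Calls over all genes fell from 277 to between 145 and 168 at E9.5 when wild-type E9.5 replicate 1 or 2 or mutant E9.5 replicate 2 was left out, and from 199 to between 92 and 125 at E8.5 when any 1 mutant E8.5 replicate, or replicate 1 or 3 of the wild type at that stage, was left out.

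**Figure D2:**
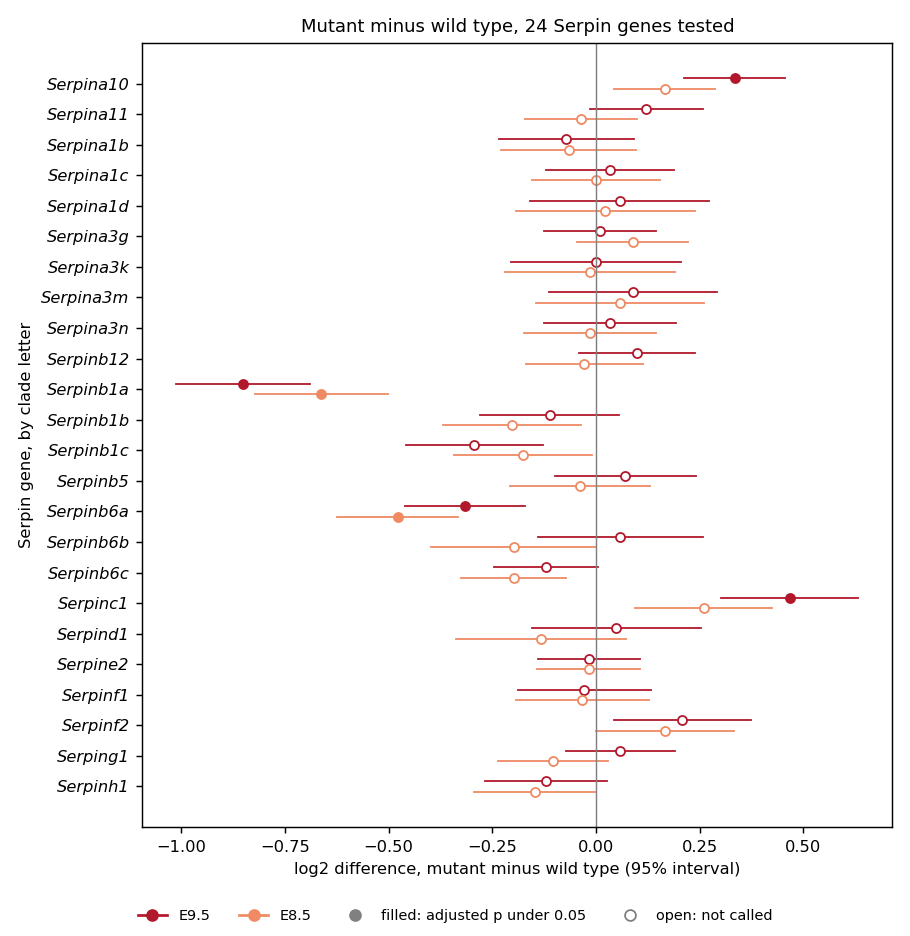
Mutant minus wild-type difference in log2 ratio for 24 of the 25 tested Serpin genes, at E9.5 and at E8.5, with 95% intervals from limma; filled points passed an adjusted p of 0.05. Serpinb1a lies at -0.85 at E9.5 and -0.66 at E8.5, farthest from 0 at both stages, and most other genes lie within 0.3 of 0.

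Serpinb1a encodes an intracellular inhibitor of neutrophil elastase, cathepsin G and related proteases. Its log2 ratios were -3.14, -3.00 and -3.05 in mutant E9.5 yolk sacs, against -2.15, -2.13 and -2.36 in wild-type E9.5 yolk sacs. At E8.5 they were -3.45, -3.33 and -3.59 in mutants, against -2.76, -2.83 and -2.78 in wild type. Every mutant array lay below every wild-type array of its stage, and the groups did not overlap. The level was 1.80-fold lower in mutants at E9.5 (log2 difference -0.85, SE 0.075, 95% interval -1.01 to -0.69, limma adjusted p = 2.91e-05). It was 1.58-fold lower in mutants at E8.5 (log2 difference -0.66, SE 0.075, limma adjusted p = 0.000393). The difference was negative in 3 of 3 scans at each stage, and it passed in all 26 alternative settings at both stages. The change of the difference between stages was -0.19, with a 95% interval of -0.42 to 0.04.

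Serpinb6a, an intracellular serpin whose loss causes deafness in mice, was lower in mutants by less. Its log2 ratios were -0.66, -0.61 and -0.50 in mutant E9.5 yolk sacs, against -0.32, -0.20 and -0.30 in wild-type E9.5 yolk sacs. At E8.5 the mutants had -1.26, -1.36 and -1.35, against -0.97, -0.75 and -0.82 in wild type. Groups of a stage did not overlap at either stage. The fold was 1.24 lower in mutants at E9.5 (log2 difference -0.32, SE 0.068, limma adjusted p = 0.0250) and 1.39 lower at E8.5 (log2 difference -0.48, SE 0.068, limma adjusted p = 0.00194). The E9.5 call was lost in 11 of 26 alternative settings (adjusted p up to 0.309), including leaving out any 1 of wild-type E9.5 replicate 1, 2 or 3 or mutant E9.5 replicate 1 or 2. The E8.5 call was lost with median centring (adjusted p = 0.0858) and with the level of Xist, the RNA of the inactive X chromosome, as a covariate (adjusted p = 0.112). Xist log2 ratios ran from -4.17 to -0.52 over the arrays. At E8.5 they were -1.76, -4.01 and -4.17 in mutants, against -1.37, -0.67 and -1.03 in wild type. At E9.5 they were -1.75, -0.52 and -1.14 in mutants, against -1.98, -4.02 and -1.35 in wild type. Xist was thus lower on every mutant than on every wild-type array at E8.5, and its part in the result was not tested further.

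The closest relatives of these 2 genes, in the same cluster on chromosome 13, had smaller log2 differences in the fit used here. The offset of that fit pulls ratios of dim genes toward 0. Serpinb1c had processed Cy5 signals of 137, 170 and 160 in mutant E9.5 yolk sacs, against 404, 330 and 346 in wild-type E9.5. Serpinb1a, a brighter probe, had 1065, 1083 and 1116, against 2711, 2765 and 2486. At E8.5 Serpinb1c had 172, 170 and 148 in mutants, against 200, 213 and 218 in wild type. Serpinb1c differed by -0.29 at E9.5 and -0.18 at E8.5 (limma adjusted p of 0.0769 and 0.365), with groups that did not overlap at either stage. Serpinb1c did pass at E9.5 with the processed signals, the authors' deposited table of log ratios, a background offset of 10 in place of 50, arrays weighted by their quality and without wild-type E9.5 replicate 3. Serpinb1b differed by -0.11 at E9.5, where 1 of 3 mutant arrays was above background, and at E8.5 its mutant level was only bounded. Serpinb6c differed by -0.12 at E9.5 and -0.20 at E8.5 without passing, and also without overlap of the groups; it passed at E8.5 with the processed signals and with the deposited table. Serpinb6b differed by 0.06 at E9.5 and -0.20 at E8.5, and its groups overlapped at both stages. How far probes of these related genes share signal was not tested. The other clade B genes tested, on chromosome 1, were Serpinb5 (maspin) with differences of 0.07 and -0.04 and Serpinb12 with 0.10 and -0.03 at E9.5 and E8.5, and neither passed. Of 21 tested genes around the chromosome 13 cluster that the files do not name Serpin, 1 of them inside it and now called Serpinb6d, 1 was called at each stage, Mboat1, a lipid acyltransferase gene, with -0.41 at E9.5 and -0.55 at E8.5. Over all genes tested 1.99% were called at E9.5 and 1.43% at E8.5.

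Markers of megakaryocytes and myeloid cells were read beside these genes. Among 7 tested megakaryocyte and myeloid markers, 0 rose and 2 fell in mutants at E9.5, and 2 rose and 1 fell at E8.5. Over all genes 0.91% rose and 1.08% fell at E9.5, and 0.71% rose and 0.717% fell at E8.5. Csf2rb, a cytokine receptor gene, was lower at both stages, with differences of -1.06 at E9.5 and -1.18 at E8.5 (limma adjusted p of 0.000379 and 0.000276). Mpo, the granule enzyme myeloperoxidase, fell at E9.5 by 0.62 (limma adjusted p = 0.00522) and differed by 0.08 at E8.5 (limma adjusted p = 0.826). The genes that rose at E8.5 were those of platelet factor 4, Pf4 (named Cxcl4 in the files), by 1.26, and of the platelet receptor Treml1, by 0.44 (limma adjusted p of 0.000133 and 0.0153). Their differences at E9.5 were 0.28 and 0.16 (limma adjusted p of 0.379 and 0.480). The myeloid genes Spi1 and Elane (neutrophil elastase, a target of Serpinb1a) were above background on 0 of 12 arrays, and the leukocyte gene Ptprc on 2. Csf1r and Lyz2, also myeloid genes, were above background on all 12 arrays and were called at neither stage. The list's median difference was 0.13 at E9.5 and 0.08 at E8.5, beside 0.00 over all genes. The mean deviation of the list per array was 0.03 to 0.16 in mutant E9.5, 0.08 to 0.38 in wild-type E9.5, -0.18 to -0.04 in mutant E8.5 and -0.27 to -0.19 in wild-type E8.5. The part of blood cells in the Serpinb1a and Serpinb6a differences was not tested. Of 7 tested leukocyte and intracellular protease targets of clade B serpins, none changed at E9.5, and 1 rose at E8.5, the lysosomal protease cathepsin B gene Ctsb, by 0.32 (limma adjusted p = 0.0473).

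Over the 12 arrays the genes whose log2 ratios followed Serpinb1a most closely were Grtp1 (Pearson r of 0.984), Galnt3 (0.967), Fbp2 (0.962), Ambp (0.961) and Slc16a9 (0.960). The arrays share the reference RNA and fall into the 4 groups, so the r is a description. Ambp, which encodes the precursor of the protease inhibitor bikunin, was lower in mutants, with differences of -0.81 at E9.5 and -0.77 at E8.5 (limma adjusted p of 0.000923 and 0.00146). Fbp2, a fructose bisphosphatase of gluconeogenesis, had differences of -0.69 at E9.5 and -0.58 at E8.5.

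Serpinc1 encodes antithrombin, the plasma inhibitor of thrombin and factor Xa. Its log2 ratios were -1.42, -1.41 and -1.31 in mutant E9.5 yolk sacs, against -1.87, -1.92 and -1.75 in wild-type E9.5 yolk sacs. At E8.5 they were -1.82, -1.95 and -1.97 in mutants, against -2.05, -2.35 and -2.12 in wild type. Mutants were above wild type without overlap at both stages. The level was 1.38-fold higher in mutants at E9.5 (log2 difference 0.47, SE 0.077, limma adjusted p = 0.00461), and the E8.5 difference of 0.26 did not pass (limma adjusted p = 0.130). A second Serpinc1 probe, also above background on all 12 arrays, gave 0.27 at E9.5 and 0.06 at E8.5 and did not pass at E9.5 (limma adjusted p = 0.0743 over probes). The E9.5 call was lost with the processed signals (adjusted p = 0.0674), the authors' deposited table (adjusted p = 0.0605) and median centring (adjusted p = 0.804), with differences of 0.47, 0.47 and 0.41.

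Serpina10 encodes an inhibitor of factors Xa and XIa that acts with protein Z. Mutant E9.5 yolk sacs had log2 ratios of 0.88, 0.81 and 0.89, against 0.57, 0.47 and 0.55 in wild-type E9.5 yolk sacs. At E8.5 the values were 0.18, 0.14 and 0.26 in mutants, against 0.07, -0.05 and 0.07 in wild type, where 2 of 3 arrays were above background. Groups of a stage did not overlap. The level was 1.26-fold higher in mutants at E9.5 (log2 difference 0.33, SE 0.057, limma adjusted p = 0.00558), and the E8.5 difference of 0.17 did not pass (limma adjusted p = 0.207). A second, dimmer probe, above background on 4 arrays, differed by 0.19 at E9.5 (limma adjusted p = 0.192 over probes). With the processed signals the difference of the first probe was 0.63. The E9.5 call was lost with the processed signals (adjusted p = 0.310), the deposited table (adjusted p = 0.300), median centring (adjusted p = 0.300) and without the 3 arrays high in Prl4a1 (adjusted p = 0.0775).

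**Figure D3:**
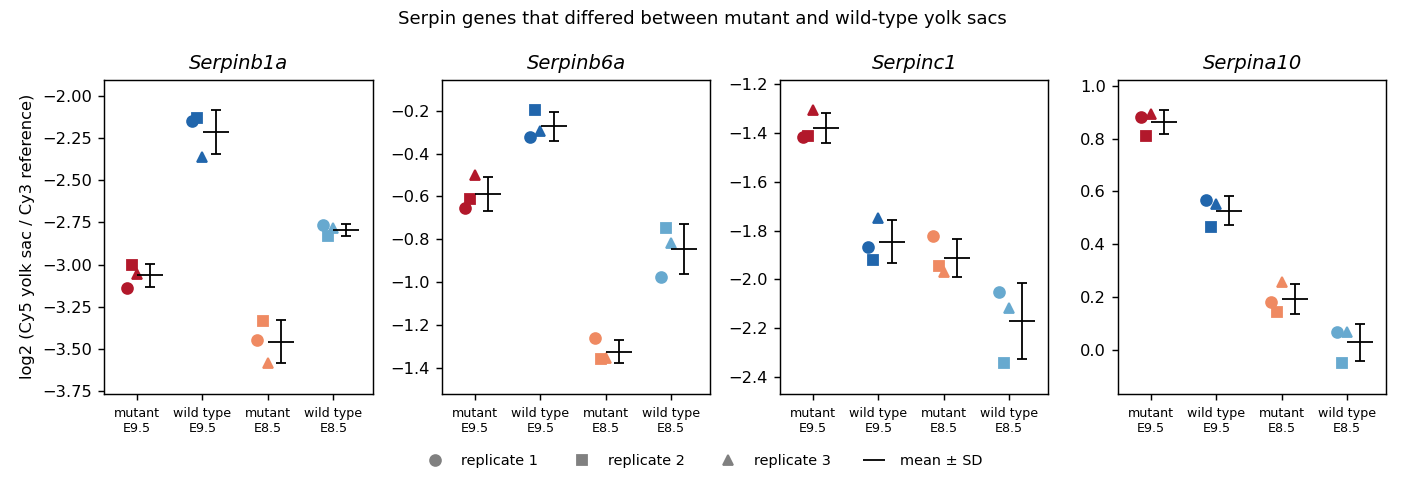
Log2 ratio of yolk sac Cy5 over newborn Cy3 on each array for the 4 Serpin genes called between mutant and wild type, with group mean and SD; each panel has its own vertical scale. Serpinb1a and Serpinb6a are lower in mutants than in wild type at both stages, and Serpinc1 and Serpina10 are higher in mutants at E9.5, where their groups do not overlap.

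Some proteases that secreted serpins inhibit, or that act beside them, were also higher in mutants. Of 21 tested target proteases and cofactors, 4 rose and 0 fell at E9.5, and 1 rose and 1 fell at E8.5. Over all genes 0.91% rose and 1.08% fell at E9.5, and 0.71% rose and 0.717% fell at E8.5. How these list calls moved in the alternative settings is not given here. Calls over all genes at E9.5 fell from 277 to 26 with median centring. F2, which encodes prothrombin, the zymogen of the main antithrombin target, rose by 0.47 at E9.5 and 0.48 at E8.5 (limma adjusted p of 0.000591 and 0.000644). At E9.5 the anticoagulant protease gene Proc rose by 0.52, the plasminogen gene Plg by 0.33 and the complement protease gene C1s by 0.33 (limma adjusted p of 0.00581, 0.0371 and 0.0131). Masp2, a lectin pathway complement protease, fell by 0.31 at E8.5 (limma adjusted p = 0.0233). The list's median difference was 0.08 at E9.5 and 0.05 at E8.5, beside 0.00 over all genes. Of 13 visceral endoderm markers, 0 were called at E9.5 and 1 rose at E8.5, Sox17, with a list median of -0.04 at E9.5 and -0.02 at E8.5. Of 23 other secreted protease inhibitors, 2 fell at each stage and 0 rose: Ambp, above, and Spint1, a membrane inhibitor of hepatocyte growth factor activator, by 0.48 at E9.5 and 0.36 at E8.5 (limma adjusted p of 0.000948 and 0.0112).

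The remaining secreted serpins did not pass between genotypes. Serpinf2, which encodes alpha-2-antiplasmin, the plasmin inhibitor, differed by 0.21 at E9.5 (95% interval 0.04 to 0.37) and 0.17 at E8.5, with no overlap of the groups at E9.5. Serpind1, which encodes heparin cofactor II, a thrombin inhibitor, differed by 0.05 at E9.5 (95% interval -0.16 to 0.25) and -0.13 at E8.5 (95% interval -0.34 to 0.07). Serping1, the inhibitor of complement C1, differed by 0.06 at E9.5 and -0.10 at E8.5. Serpine2, which encodes the cell-surface thrombin inhibitor protease nexin-1, and Serpinf1, which encodes the non-inhibitory pigment epithelium-derived factor, differed by -0.02 and -0.03 at E9.5 and by -0.02 and -0.03 at E8.5. A second Serpinf1 probe was also above background on all 12 arrays. It differed by 0.12 at E9.5 and -0.003 at E8.5 without passing (limma adjusted p of 0.555 and 0.993 over probes). Among the clade A genes other than Serpina10, differences ran from -0.07 to 0.12 at E9.5 and from -0.07 to 0.09 at E8.5.

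Between E8.5 and E9.5 the yolk sac gained serpins in both genotypes, in the fit used here most of all the secreted serpins Serpind1 and Serpinf2. That order depended on the processing. With the processed signals Serpina10 rose by 1.69 in the mutant and 1.78 in the wild type, and Serpina3g by 1.66 in the wild type. Serpinf2 rose by at most 1.40 in the mutant and 1.30 in the wild type in any setting. In the mutant 12 of 25 Serpin genes rose and 0 fell, against 21.5% of all genes called (10.9% rose and 10.6% fell). In the wild type 10 of 25 rose and 0 fell, against 23.5% of all genes called (12.7% rose and 10.8% fell). The 10 genes that rose in the wild type all rose in the mutant as well: Serpina10, Serpina1b, Serpina3g, Serpinb1a, Serpinb6a, Serpinb6c, Serpinc1, Serpind1, Serpinf2 and Serpinh1. Serpinb6b passed in the mutant and not in the wild type, and the difference between genotypes was not called (limma adjusted p = 0.877). The median change was 0.19 in the mutant and 0.16 in the wild type on the log2 scale, beside -0.01 over all genes in each. With arrays centred on their median the change over all genes moved by 0.15 in the mutant and 0.12 in the wild type, and calls over all genes went to 1674 up and 79 down in the mutant and 1379 up and 76 down in the wild type, against 1520 and 1473, and 1773 and 1506, with loess. Under that centring 15 Serpin genes rose in the mutant and 10 in the wild type, and 0 fell.

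**Figure D4:**
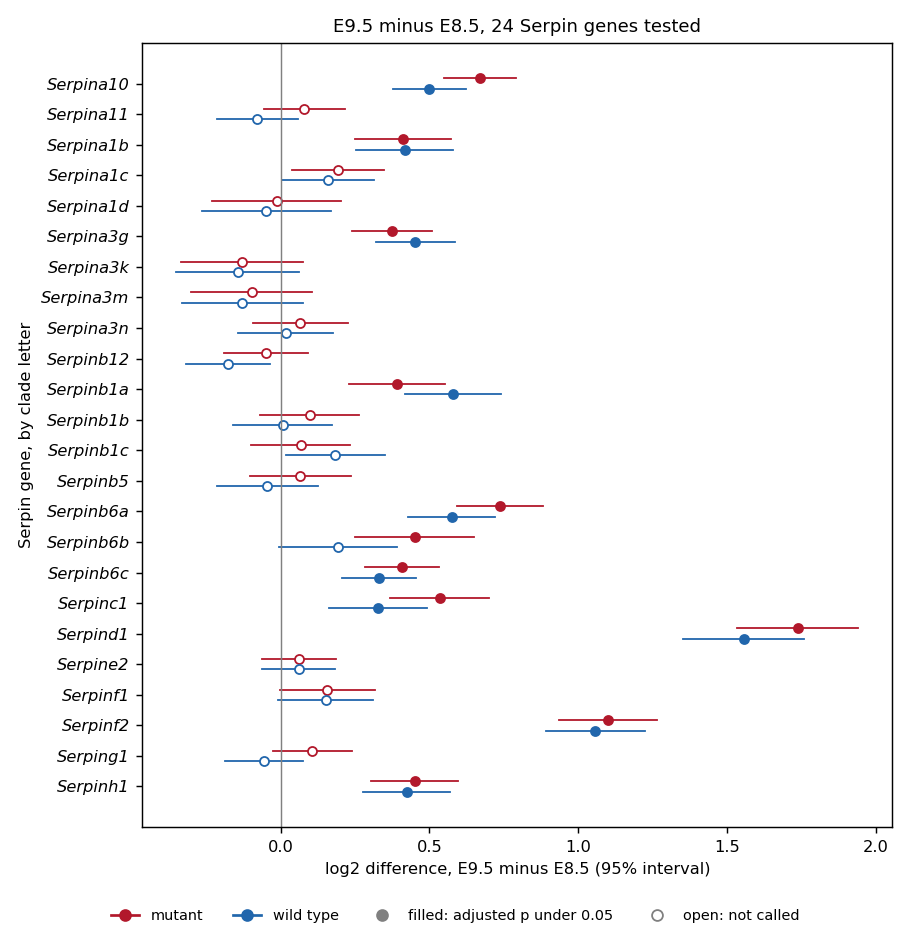
E9.5 minus E8.5 difference in log2 ratio for 24 of the 25 tested Serpin genes in mutant and in wild-type yolk sacs, with 95% intervals from limma; filled points passed an adjusted p of 0.05. Serpind1 and Serpinf2 lie above 1 in both genotypes, and no filled point lies below 0.

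Serpind1 had log2 ratios of -0.74, -0.33 and -0.53 in mutant E9.5 yolk sacs, against -2.37, -2.19 and -2.25 in mutant E8.5 yolk sacs. Wild-type yolk sacs had -0.53, -0.46 and -0.75 at E9.5, against -2.13, -2.12 and -2.17 at E8.5. All E9.5 arrays lay more than 1 log2 unit above all E8.5 arrays. The rise was 3.33-fold in the mutant (log2 difference 1.74, SE 0.095, limma adjusted p = 7.51e-08) and 2.94-fold in the wild type (log2 difference 1.56, SE 0.095, limma adjusted p = 2.01e-07). The change of the stage difference with genotype was 0.18, with a 95% interval of -0.11 to 0.47. The genes that followed Serpind1 most closely over the 12 arrays were Crip1 (Pearson r of 0.994), Fga (0.994), Trf (0.992), Cfi (0.989) and Fmo1 (0.988). Fga encodes a fibrinogen chain, Trf the iron carrier transferrin, which is one of the visceral endoderm markers, and Cfi the complement protease factor I.

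Serpinf2 had log2 ratios of 1.41, 1.49 and 1.53 in mutant E9.5 yolk sacs, against 0.41, 0.39 and 0.32 in mutant E8.5 yolk sacs. Wild-type yolk sacs had 1.30, 1.29 and 1.21 at E9.5, against 0.34, -0.00 and 0.29 at E8.5. The stages did not overlap in either genotype, and 11 of 12 arrays held more Serpinf2 signal than the newborn RNA. The rise was 2.14-fold in the mutant (log2 difference 1.10, limma adjusted p = 5.67e-07) and 2.08-fold in the wild type (log2 difference 1.06, limma adjusted p = 8.00e-07). By the values given above, Serpinc1 rose by a log2 difference of 0.53 in the mutant and 0.33 in the wild type (limma adjusted p of 0.000264 and 0.00730). Its second probe rose by 0.40 in the mutant, and its difference of 0.20 in the wild type did not pass (limma adjusted p of 0.000917 and 0.0543 over probes). With median centring the Serpinc1 differences were 0.81 and 0.53, and the wild-type call was lost (adjusted p = 0.0945). Serpina10 rose by 0.67 in the mutant and 0.50 in the wild type (limma adjusted p of 2.91e-06 and 3.62e-05). The second, dimmer Serpina10 probe did not pass, with differences of 0.13 in the mutant and 0.01 in the wild type (limma adjusted p of 0.177 and 0.902 over probes). The first probe gave 1.69 and 1.78 with the processed signals, and the mean over kept probes gave 0.40 and 0.26, and all of these passed.

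The bases just before the start sites of 3 genes of secreted serpins that rose with stage are shown. They are the 250 bases upstream of the RefSeq start of Serpind1 (GRCm38.p6, chr16:17331121-17331370, plus strand), Serpinf2 (chr11:75439502-75439751, minus strand) and Serpinc1 (chr1:160978333-160978582, plus strand), 5′ to 3′. Capitals mark CAAAG or its reverse complement CTTTG, the core of a half-site for nuclear receptors such as HNF4A, a regulator of visceral endoderm genes.
Serpind1: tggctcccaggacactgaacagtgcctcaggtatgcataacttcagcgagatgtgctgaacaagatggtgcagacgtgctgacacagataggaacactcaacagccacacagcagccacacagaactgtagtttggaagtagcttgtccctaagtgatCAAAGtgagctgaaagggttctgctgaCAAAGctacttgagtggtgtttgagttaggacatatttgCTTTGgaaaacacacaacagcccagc
Serpinf2: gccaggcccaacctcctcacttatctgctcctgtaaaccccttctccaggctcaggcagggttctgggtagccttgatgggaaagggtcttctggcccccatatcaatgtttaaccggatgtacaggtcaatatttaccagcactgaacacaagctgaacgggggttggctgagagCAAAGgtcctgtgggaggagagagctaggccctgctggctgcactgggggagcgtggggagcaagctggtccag
Serpinc1: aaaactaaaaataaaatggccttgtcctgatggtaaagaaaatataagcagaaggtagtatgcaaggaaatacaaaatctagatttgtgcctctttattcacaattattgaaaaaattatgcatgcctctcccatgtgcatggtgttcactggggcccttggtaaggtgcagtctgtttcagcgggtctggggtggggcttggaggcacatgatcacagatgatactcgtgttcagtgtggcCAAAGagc
The letters occur 3 times before Serpind1, at 92, 65 and 26 bases from the start, once before Serpinf2 at 74 bases and once before Serpinc1 at 8 bases. On either strand they occur in 48.6% of the 32851 mouse promoters of the same length in the RefSeq table. The HNF1 half-site GTTAAT (6.43% of promoters) and the TATA box letters TATAAA (12.4%) were in none of the 3 windows, and the GATA letters AGATAA (9.99%) were in Serpinf2 alone, on the opposite strand 230 bases from the start. These matches describe the sequence and are not binding data. Of the 55 Serpin genes, 45 have an entry in that table. Serpina10 and Serpinb1a have none.

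Serpinh1 encodes HSP47, the collagen-folding chaperone of the endoplasmic reticulum, which inhibits no protease. Its log2 ratios were 0.18, 0.18 and 0.22 in mutant E9.5 yolk sacs, against -0.16, -0.25 and -0.36 in mutant E8.5 yolk sacs. Wild-type values were 0.20, 0.43 and 0.32 at E9.5, against -0.03, -0.12 and -0.17 at E8.5. The stages did not overlap, and E9.5 arrays lay above the newborn RNA and E8.5 arrays below it. The rise was 1.37-fold in the mutant and 1.34-fold in the wild type (log2 differences 0.45 and 0.42, limma adjusted p of 0.000385 and 0.000569). Over all genes 10.9% rose and 10.6% fell in the mutant, and 12.7% rose and 10.8% fell in the wild type. Of 20 collagens and collagen-folding partners, 13 rose in the mutant and 14 in the wild type, and 0 fell. Those of the wild type included Col1a1 by 1.87, Col3a1 by 1.35, the collagen hydroxylase subunit gene P4ha2 by 0.49 and the collagen chaperone gene Fkbp10 by 0.48. With median centring the Serpinh1 differences were 0.74 and 0.65. Of 8 tested genes of the heat shock response, by which Serpinh1 is also induced, 4 rose and 2 fell in the mutant, and 1 rose and 4 fell in the wild type. Hspb1 rose in both genotypes, by 0.32 in the mutant and 0.58 in the wild type, while Hspa1a rose by 1.52 in the mutant and fell by 1.46 in the wild type. Between genotypes Serpinh1 differed by -0.12 at E9.5 and -0.15 at E8.5 without passing. Of the 20 collagens and partners, 0 were called at E9.5 and 2 rose at E8.5. These were Col1a1 by 0.77 and Col3a1 by 0.61 (limma adjusted p of 0.00231 and 0.00123). Of the 8 heat shock genes, 0 were called at E9.5, and 0 rose and 4 fell at E8.5. Their median difference was 0.10 at E9.5 and -0.39 at E8.5. Their mean deviation per array was -0.33 to -0.21 in mutant E8.5, and 0.41, -0.01 and 0.56 in wild-type E8.5. Among all genes tested 0.91% rose and 1.08% fell at E9.5, and 0.71% rose and 0.717% fell at E8.5. The part of the heat shock response in the Serpinh1 values was not tested.

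**Figure D5:**
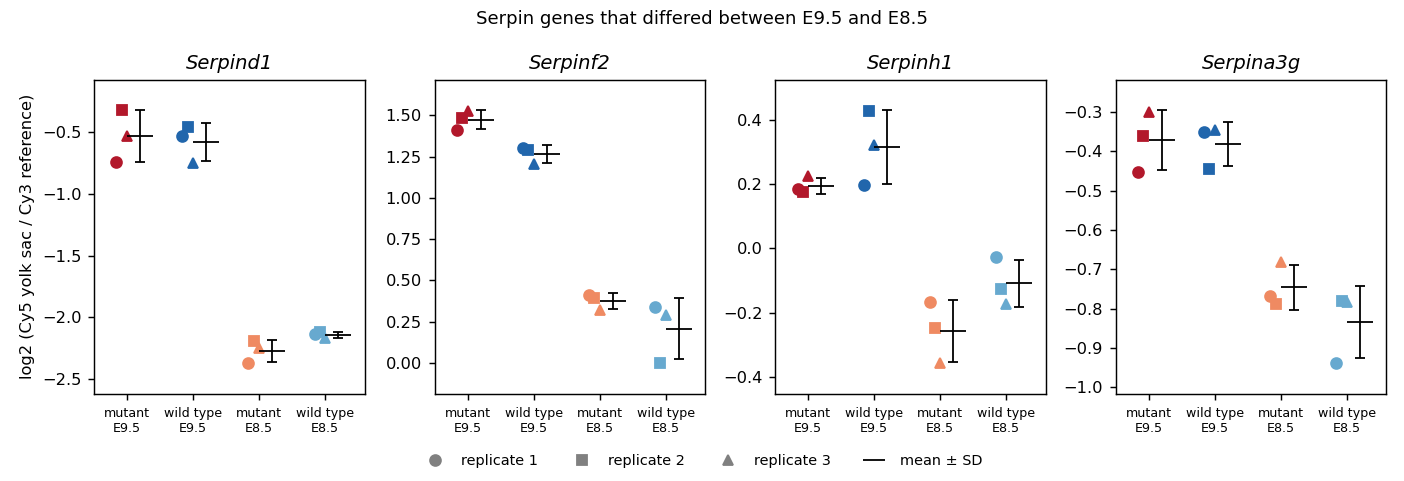
Log2 ratio of yolk sac Cy5 over newborn Cy3 on each array for 4 Serpin genes called between E9.5 and E8.5, with group mean and SD; each panel has its own vertical scale. Serpind1, Serpinf2, Serpinh1 and Serpina3g are higher at E9.5 than at E8.5 in both genotypes without overlap of the stages.

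The intracellular serpins that were lower in mutants also rose with stage. Serpinb1a rose by 0.39 in the mutant and 0.58 in the wild type (limma adjusted p of 0.00201 and 0.000101), and by 0.62 in the mutant with median centring. Serpinb6a rose by 0.74 in the mutant and 0.57 in the wild type (limma adjusted p of 5.99e-06 and 4.99e-05). By these values the mutant E9.5 level of Serpinb1a, -3.06 ± 0.07, lay below even the wild-type E8.5 level, -2.79 ± 0.03 (SD, n = 3 each). That of Serpinb6a, -0.59 ± 0.08 in mutant E9.5 yolk sacs, lay above -0.85 ± 0.12 in wild-type E8.5 yolk sacs (SD, n = 3 each).

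Serpinb6c had log2 ratios of -0.31, -0.23 and -0.19 in mutant E9.5 yolk sacs, against -0.65, -0.66 and -0.64 in mutant E8.5 yolk sacs. It had, in wild-type yolk sacs, -0.17, -0.07 and -0.13 at E9.5, against -0.56, -0.38 and -0.41 at E8.5. The stages did not overlap, and the rise was 0.41 in the mutant and 0.33 in the wild type (limma adjusted p of 0.000255 and 0.00112). Serpinb6b had -0.57, -0.47 and -0.65 in mutant E9.5 yolk sacs, against -1.02, -1.20 and -0.81 in mutant E8.5 yolk sacs, a rise of 0.45 (limma adjusted p = 0.00340). Serpinb6b in wild-type yolk sacs had -0.73, -0.67 and -0.45 at E9.5, against -0.85, -0.77 and -0.81 at E8.5, a difference of 0.19 that did not pass (limma adjusted p = 0.155). With the processed signals the differences were larger, 1.02 in the mutant and 0.75 in the wild type for Serpinb6c and 1.09 in the mutant for Serpinb6b. The mutant Serpinb6b call was lost with Xist as a covariate (adjusted p = 0.0784).

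Within the antitrypsin and antichymotrypsin families of clade A, which in mice are clusters of close copies on chromosome 12, 1 tested member of each passed between stages in the fit used here. Serpina1b, an alpha-1-antitrypsin gene, had log2 ratios of -3.33, -3.23 and -3.31 in mutant E9.5 yolk sacs, against -3.77, -3.61 and -3.72 in mutant E8.5 yolk sacs. Its wild-type values were -3.17, -3.16 and -3.32 at E9.5, against -3.75, -3.47 and -3.69 at E8.5. It rose without overlap by 0.41 in the mutant and 0.42 in the wild type (limma adjusted p of 0.00160 and 0.00132), and by 0.93 and 1.01 with the processed signals. Serpina1d, the brightest antitrypsin probe in Cy5, had -3.84, -3.57 and -3.68 in mutant E9.5 yolk sacs, against -3.76, -3.62 and -3.67 in mutant E8.5 yolk sacs. Serpina1d in wild-type yolk sacs had -3.83, -3.59 and -3.84 at E9.5, against -3.80, -3.46 and -3.85 at E8.5, and its groups overlapped throughout. Serpina1c differed by 0.19 in the mutant and 0.16 in the wild type (limma adjusted p of 0.0723 and 0.126). It passed in the mutant with the replicate block, median centring, array weights and without mutant E9.5 replicate 1, and in the wild type with the processed signals, the deposited table, median centring, the offset of 10 and array weights.

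Serpina3g encodes an inhibitor of lysosomal cathepsins that stays inside blood cells. Its log2 ratios were -0.45, -0.36 and -0.30 in mutant E9.5 yolk sacs, against -0.77, -0.79 and -0.68 in mutant E8.5 yolk sacs. Wild-type values were -0.35, -0.45 and -0.35 at E9.5, against -0.94, -0.78 and -0.78 at E8.5. The stages did not overlap, and it rose by 0.37 in the mutant and 0.45 in the wild type (limma adjusted p of 0.000791 and 0.000181). With the processed signals these differences were 1.28 and 1.66. Serpina3k, a liver serpin of the same family, had -2.79, -2.55 and -2.58 in mutant E9.5 yolk sacs, against -2.57, -2.40 and -2.57 in mutant E8.5 yolk sacs. Serpina3k in wild-type yolk sacs had -2.69, -2.54 and -2.69 at E9.5, against -2.57, -2.26 and -2.65 at E8.5. Its groups overlapped, and the differences of -0.13 in the mutant and -0.14 in the wild type did not pass. Serpina3m and the acute-phase gene Serpina3n did not pass either, with differences of -0.10 and 0.07 in the mutant and -0.13 and 0.02 in the wild type. How far probes of these close copies share signal was not tested.

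The stage differences stood beside changes in both directions over all genes tested. In the mutant 10.9% rose and 10.6% fell, and in the wild type 12.7% rose and 10.8% fell. Of the 21 target proteases and cofactors, 9 rose and 0 fell in the mutant, and 7 rose and 1 fell in the wild type. Of the 23 other secreted protease inhibitors, 8 rose in the mutant and 9 in the wild type, and 0 fell. Among 13 visceral endoderm markers, 6 rose and 1 fell in the mutant, and 7 rose and 1 fell in the wild type, with medians of 0.21 and 0.24. The mean deviation of these markers per array was 0.09 to 0.28 in mutant E9.5, 0.19 to 0.27 in wild-type E9.5, -0.23 to -0.19 in mutant E8.5 and -0.37 to -0.16 in wild-type E8.5. Their part in the rise of the secreted serpins was not tested.

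Set against the newborn RNA, 21 of the 25 tested Serpin genes gave a log2 ratio below 0 on all 12 arrays. The share of all tested genes that did so is not given here, so this count is only a description. Serpina10, Serpinf2 and Serpinh1 were on both sides of 0. By contrast 11 of the 13 visceral endoderm markers were above 0 on all 12 arrays, with a mean log2 ratio of 5.27 for the endocytic receptor gene Cubn. The exceptions were Trf, with a mean of -1.63, and Sox17, with values on both sides of 0.

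Genes of the Serpinb9 cluster, relatives of the granzyme B inhibitor gene Serpinb9, were too dim to test but were uneven between arrays. Serpinb9d was above background on 3 arrays, the ones high in Prl4a1. Its processed Cy5 signal, in intensity units, was 15.5, 17.7 and 118 in mutant E9.5, 16.2, 18.4 and 117 in wild-type E9.5, 16.4, 17.8 and 168 in mutant E8.5 and 16.1, 33.1 and 47.9 in wild-type E8.5 yolk sacs. Serpinb9e was above background on 2 of those 3 arrays and Serpinb9g on 1 of them. Serpinb9g had its 3 highest signals on them, 59.2 in mutant E9.5, 281 in wild-type E9.5 and 78.3 in mutant E8.5, against 13.7 to 41.7 on the other 9 arrays. Serpinb9 itself was above background on 1 array, wild-type E9.5 replicate 2, and Serpinb9b, Serpinb9c and Serpinb9f on none. The mean deviation of 5 tested trophoblast markers was 1.10, 0.89 and 1.27 on the 3 arrays high in Prl4a1, and -0.62 to -0.13 on the others. Prl4a1 itself is 1 of the 5, so this mean was bound to be high on those arrays. The part of trophoblast RNA in the Serpinb9 signals was not tested.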

How the data were processed

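Per the labels' protocols, total RNA was extracted with TRIzol and RNeasy columns and labelled with a low-input amplification kit. Per the file headers, arrays were read with Feature Extraction 9.5.1.1. Among the deposited values of each array are mean and local background intensity values, processed intensity values (background-subtracted and dye-normalized by the authors with LOWESS, per the file headers), a log10 ratio of the processed signals, and flags of 0 or 1 scored by the software, deposited for spots above background, saturated or outlying. A further deposited file, over all arrays, has the authors' log2 ratios of Cy5 over Cy3, centred per probe, as set against the per-array files (r = 1.00 on every array, column medians -0.00606 to 0.00401), and covers 13537 of the tested genes.

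In R 4.3.3 with the packages limma (3.58.1) and data.table (version 1.17.8), background was corrected with normexp (offset 50, which pulls ratios of dim genes toward 0), control spots had weight 0 in the loess, and spots over 20 units below background or marked as outliers were set missing (none in a Serpin value). The filter left 13953 genes. One limma fit held a mean per group over the 12 arrays, with residual degrees of freedom of 8 and prior ones of 6.20. For each of 5 contrasts p-values were adjusted over all genes (Benjamini-Hochberg), with an adjusted p under 0.05 as the threshold. The fit was checked on simulated data. Array number limits the precision, and labels name biological replicates without saying how tissue was pooled. Per the file headers the replicate number is also the scan, though 2 of the 3 scans share a slide barcode. Same-numbered arrays of different groups had correlated deviations in 16 of 18 pairs (r above 0.1, median 0.23).

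The Serpin genes and all gene lists were chosen with earlier results of these data known. Values on every array are given for genes called in any contrast, for the 8 brightest tested Serpin genes, and for Serpind1 and Serpinb1a; the values of 1 Serpin gene are not reported here, though counts include it. A list's mean deviation is the mean over its tested genes of the log2 ratio minus that gene's mean over 12 arrays. Serpin names were current for all 55 genes. Promoter sequences are RefSeq's (GRCm38.p6). Probe coordinates were not used, since no source used here names their build.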

Additional observations from a re-analysis of the deposited data

How the results depend on the processing

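Counts of called Serpin genes were recomputed in 26 settings, 12 of which left out 1 array each. At E9.5 between genotypes the main count of 4 went to 2 with the processed signals and to 2 with the deposited table (in both, Serpinb1a kept, Serpinb1c added and the other calls lost), to 1 with median centring and to 2 without the 3 arrays high in Prl4a1. At E8.5 the count of 2 went to 1 with median centring and to 1 with Xist as a covariate. Leaving out 1 array gave 3 to 4 calls at E9.5, 2 to 2 at E8.5, 11 to 13 in the mutant between stages and 10 to 11 in the wild type, and 0 to 0 for the interaction. The replicate block, which is also the scan block, gave 4, 2, 13, 10 and 0 for these comparisons in this order, adding Serpina1c in the mutant and losing no call. Of 724 single-gene values, 696 kept their direction and side of the threshold, 28 kept direction but no longer passed, and 0 reversed. Calls over all genes also moved by over 1.5 times: at E9.5 from 277 to 167 with the processed signals, 177 with the deposited table, 26 with median centring (5 up, 21 down, against 127 and 150), 126 without the 3 arrays and 133 with Xist, and at E8.5 from 199 to 10 with median centring (2 up, 8 down, against 99 and 100), 86 without the 3 arrays, 24 with Xist, 124 with only the arrays compared and 411 with array weights. Between stages in the mutant they went from 2993 to 1332 without the 3 arrays and 1397 with Xist. The interaction called 0 genes, and 1 with the replicate block, 5 with array weights and 2 without the 3 arrays. The causes were not tested. The interaction could not be fitted from single stages or genotypes. Serpina10 left the test when signal on all 12 arrays was required, and Serpin genes at background have only a bound.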
